A study of Tachycineta bicolor with 20 samples.

Results

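The 200 transcripts whose read levels differed least among the ovaries of 20 female tree swallows (Tachycineta bicolor) are described here. Levels are counts per 1000000 counts of the library (CPM). Candidates had to be the only transcript of their ID stem and to average from 10 to 300 CPM over the 20 birds, which 7893 of 14782 transcripts did. Members are the 200 of those with the lowest coefficient of variation (CV, the SD of CPM over the 20 birds in percent of the mean), 2.53% of the 7893. Their low CV is what chose them and is given as a description only.

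The birds were free-living adults, each an ovary library of its own. In experimental birds, competition had been raised by a temporary removal of nest boxes, and ovaries came from 4 birds on Day 2, after competition, and 6 on Day 0, at its peak. Control birds, matched by date and left alone, numbered 5 on Day 2 and 5 on Day 0. No genotype, strain or age beyond adult is given, and nothing was added to any group.

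Transcripts whose level changes little between individuals are commonly used as internal references when other transcripts are measured, for example by quantitative PCR. The ovary of a breeding songbird holds follicles at different stages of growth, with oocytes, granulosa and theca cells in changing proportions. The proportions in these ovaries are not known here. The files pair the IDs with no gene names, so what the members encode is not known here, and the tissue label could not be checked against marker genes. In bulk tissue, fewer cells of a type and less RNA per cell cannot be told apart.

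Members had a median CV of 9.18%, from 5.80% to 10.3%, where the 7893 eligible transcripts had a median of 21.6% and reached 354%. The highest bird exceeded the lowest by a median of 1.40-fold, from 1.24-fold to 1.74-fold over the members. Over 7882 eligible transcripts with reads in every bird, that ratio had a median of 2.29. In all 20 birds, 113 members stayed within 20% of their own mean and 186 within 25%, but none stayed within 10%. Of the 7893 eligible transcripts, members included, 158 stayed within 20%, 520 within 25% and 0 within 10%. Tightness can also be read bird by bird, as the median over the members of the absolute deviation from the member's mean. Its mean was 6.17% ± 1.15 (SD over 20 birds), and the same measure over the eligible transcripts had a mean of 14.7% ± 3.91 (SD over 20 birds).

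**Figure D1:**
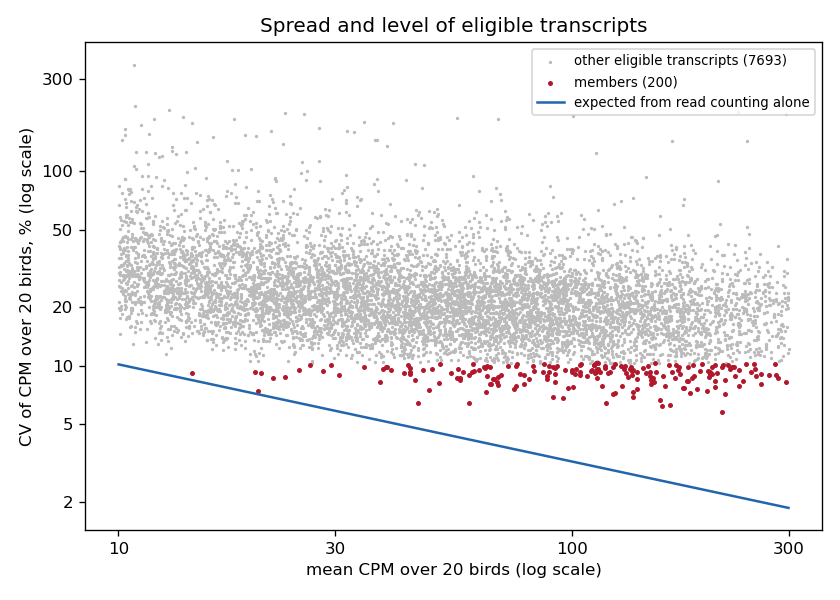
CV of CPM over 20 birds (percent, log scale) against mean CPM (log scale) for each eligible transcript, with the 200 members in red, the rest in grey and the CV expected from read counting alone as a blue line. Members form the lower edge of the cloud, from 5.80% to 10.3%, and most lie well above the counting line.

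The transcript tree_swallow008206t1_sg0.0 had the lowest CV, 5.80%, at a mean of 214 CPM. It had 236, 209, 225 and 215 CPM in experimental birds of Day 2, against 238, 224, 222, 224 and 210.1 CPM in controls of Day 2. Birds of Day 0 had 209, 229, 215, 213, 210.1 and 203 CPM in experimental birds, against 191, 200.8, 206, 200.2 and 203 CPM in controls. All 5 Day 0 controls lay below every other bird except experimental bird 6 of Day 0, which fell among them. Of its small variance, 55.4% lay between the groups, a share not corrected for the few birds in each. Its difference between Day 2 and Day 0 controls did not pass (log2 fold change 0.19, SE 0.086, edgeR adjusted p = 0.334).

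Ranks 2 to 5 showed other arrangements of the same small spread. The transcript tree_swallow006123t1_sg0.0 (CV 6.21%) had 162, 151.5, 150.01 and 146 CPM in experimental birds of Day 2, against 159.5, 158, 178, 158 and 151.4 CPM in controls of Day 2. On Day 0 it had 163, 167, 141, 164, 159.9 and 166 CPM in experimental birds, against 151.1, 151.5, 165, 142 and 172 CPM in controls. Experimental bird 3 of Day 0 was the lowest of the 20, and the groups overlapped. The transcript tree_swallow008935t1_sg0.0 (CV 6.25%) had a mean of 156 CPM ± 8.88 (SD over 4 birds) in experimental birds and 163 CPM ± 9.25 (SD over 5 birds) in controls of Day 2. On Day 0 it had a mean of 166 CPM ± 10.8 (SD over 6 birds) in experimental birds and 172 CPM ± 8.89 (SD over 5 birds) in controls, and its highest value, 187 CPM, was in control bird 1 of Day 0.

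The transcript tree_swallow007107t1_sg0.0 (CV 6.40%) was the tightest member below 100 CPM. It had 60.2, 58.5, 59.2 and 56.0 CPM in experimental birds of Day 2, against 56.1, 59.0, 55.4, 60.4 and 59.6 CPM in controls of Day 2. Its Day 0 values were 50.8, 56.0, 59.8, 65.0, 62.5 and 64.2 CPM in experimental birds, against 54.97, 61.2, 63.9, 60.1 and 65.7 CPM in controls. The 9 birds of Day 2 lay between 55.4 and 60.4 CPM, while Day 0 birds ran wider, from 50.8 to 65.7 CPM. The transcript tree_swallow006704t1_sg0.0 (CV 6.44%) ran from 107 CPM in control bird 1 of Day 0 to 133 CPM in experimental bird 1 of Day 2, and its group means were 118 CPM ± 10.3 (SD over 4 birds), 119 CPM ± 9.28 (SD over 5 birds), 122 CPM ± 6.72 (SD over 6 birds) and 115 CPM ± 4.68 (SD over 5 birds) for experimental and control birds of Day 2 and experimental and control birds of Day 0.

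**Figure D2:**
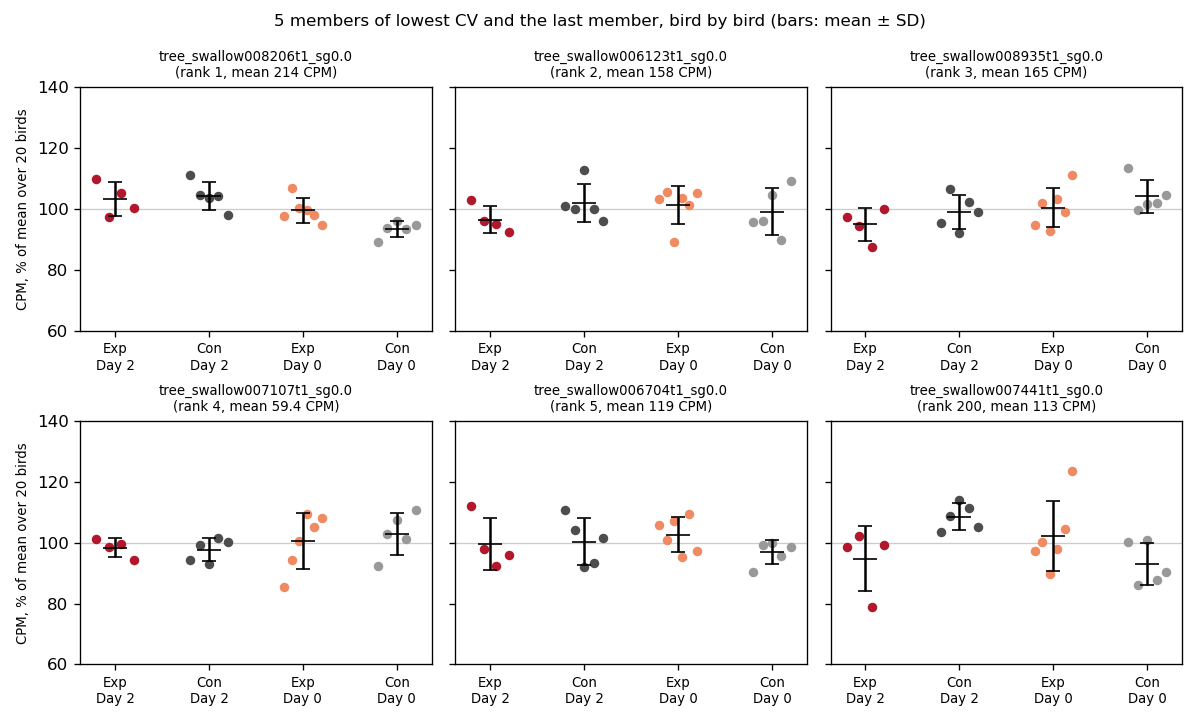
CPM of the 5 members of lowest CV and of the last member, in percent of the mean over 20 birds, with 1 point per bird and the mean ± SD of each group as bars (Exp, experimental; Con, control). In the first panel the Day 0 controls sit below most other birds, and in the last panel experimental bird 3 of Day 2 sits lowest, at 89.3 CPM.

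The cut fell in a dense part of the distribution. The last 2 members, tree_swallow007366t1_sg0.0 and tree_swallow007441t1_sg0.0, both had a CV of 10.31%. The first 2 outside, tree_swallow002977t1_sg0.0 and tree_swallow006371t1_sg0.0, both had 10.32%. The last member had 112, 116, 89.3 and 112 CPM in experimental birds of Day 2, against 117, 123, 129, 126 and 119 CPM in controls of Day 2. Day 0 birds had 109.9, 113, 101, 111, 118 and 139.6 CPM in experimental birds, against 113, 97.3, 114, 99.4 and 102 CPM in controls. A single experimental bird of Day 2 was far below the other 3 of its group, and the 5 controls of Day 2 all lay above the 4 experimental birds of that day. With each bird left out in turn, all 50 of lowest CV stayed among the 200 in each of the 20 cases, but 2 of the last 50 members did. Over all ranks 150 members stayed in each of the 20 cases.

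Members were read deeply. CPM is not scaled to transcript length, so it stands for the reads behind a value and does not rank transcripts by molecules. Members had a median of 1179 reads per bird, and the smallest single count of any member in any bird was 86. All 200 therefore passed the filter on low counts used for the group tests. Of 1473 eligible transcripts from 10 to 20 CPM, 2 were members (0.136%), and the share was 0.998% from 20 to 50 CPM, 2.68% from 50 to 100, 5.90% from 100 to 200 and 7.80% from 200 to 300. The CV that read counting alone would give had medians of 8.49%, 5.67%, 3.82%, 2.76% and 2.08% in the same 5 classes. The median of the whole CV of eligible transcripts was 27.96%, 22.39%, 20.20%, 18.50% and 18.54% there. Both the counting CV and the whole CV were thus largest in the lowest class, where the members' share was lowest. The part of counting in the members' share was not tested.

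Counting accounted for a median of 11.3% of the squared CV of a member, from 3.56% to 92.2%. The member of lowest reads, tree_swallow011674t1_sg0.0, shows a case near that limit. It had 16.3, 15.5, 14.8 and 14.3 CPM in experimental birds of Day 2, against 16.7, 12.8, 14.2, 14.9 and 13.4 CPM in controls of Day 2. Birds of Day 0 had 11.96, 15.8, 13.5, 15.05, 15.5 and 13.5 CPM in experimental birds, against 15.03, 12.3, 16.3, 14.6 and 14.7 CPM in controls. Its CV of 9.16% stood beside 8.42% expected from counting alone. The highest share of counting, 92.2%, belonged to tree_swallow008938t1_sg0.0 (chosen after its values were seen), with a CV of 7.42% at a mean of 20.3 CPM and 7.13% expected from counting. At the other end tree_swallow007735t1_sg0.0, the member of most reads at a mean of 296 CPM, had a CV of 8.20% where counting gives 1.87%. These counting values treat reads as independent molecules.

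A few birds held many of the members' lowest values. Experimental bird 3 of Day 0 had the largest median absolute deviation, 9.58%, where the other 5 of its group had 5.23% to 6.31%. It held the lowest value of 35 members, and control bird 1 of Day 0 held the lowest of 32, where an even spread over 20 birds gives 10. Experimental bird 3 of Day 2 followed with 19. The members' median deviation was -4.55%, -3.58% and -6.27% of their mean in those 3 birds. Over all eligible transcripts the median deviation was -12.0%, -2.15% and -1.18% in the same order. The highest values were spread more evenly, with at most 21 in 1 bird, control bird 3 of Day 2.

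The part of depth in the deviations of these birds was not tested. Total counts were 15718893 in experimental bird 3 of Day 2, 6539735 in experimental bird 3 of Day 0 and 13244184 in control bird 1 of Day 0, over a range from 5818117 to 15718893. The shallowest, experimental bird 2 of Day 0, had a median absolute deviation of 6.05%. Experimental bird 3 of Day 0 was also highest over all eligible transcripts, at 26.7% where the median bird had 13.9%. Experimental bird 1 of Day 0 followed there with 22.2%, while it had 6.31% over the members. The lowest TMM scaling factor, 0.939 in a range up to 1.07, was that of experimental bird 3 of Day 0. Leaving out the 3 birds whose total counts open this paragraph was a choice made after the data were seen, by their deviations and not their depth. They had the largest median absolute deviations over the members, 7.39%, 9.58% and 7.47% in the order above. The mean of the median absolute deviations was then 5.80% ± 0.659 (SD over 17 birds). Taking out the largest values lowers that mean in advance, so nothing is read from the fall.

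**Figure D3:**
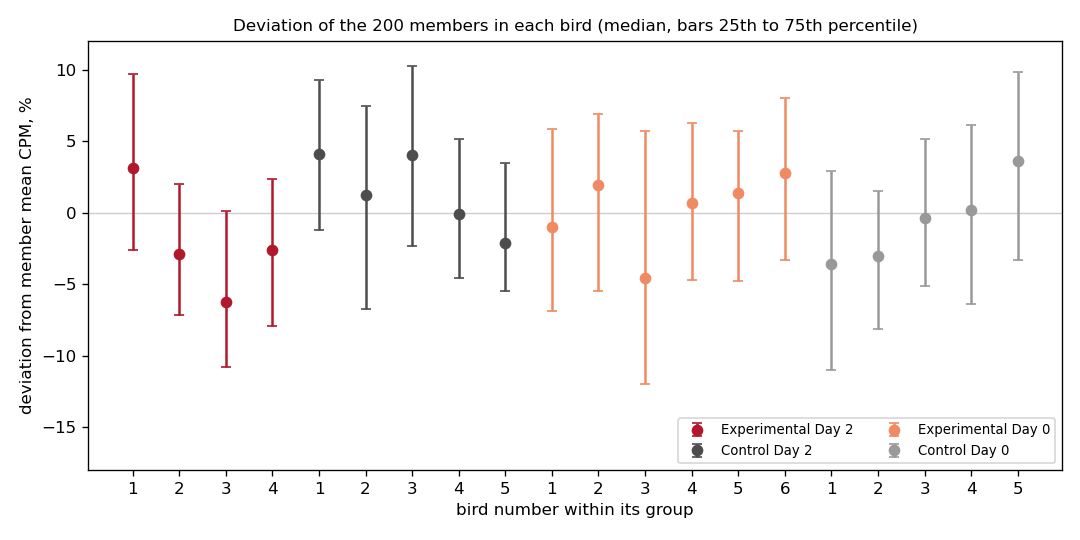
Deviation of the 200 members from their own mean CPM in each of 20 birds, in percent, with the median as a point and the 25th to 75th percentiles as bars, coloured by group. Medians run from -6.27% in experimental bird 3 of Day 2 to 4.12% in control bird 1 of Day 2, and the groups overlap.

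The members took 2.48% ± 0.0725 (SD over 20 birds) of all reads. By group the share was 2.43% ± 0.0981 (SD over 4 birds) in experimental birds and 2.52% ± 0.0491 (SD over 5 birds) in controls of Day 2. On Day 0 it was 2.49% ± 0.0530 (SD over 6 birds) in experimental birds and 2.45% ± 0.0793 (SD over 5 birds) in controls. Group ranges overlapped, with 2.35% to 2.57% and 2.46% to 2.58% on Day 2, and 2.395% to 2.56% and 2.36% to 2.56% on Day 0.

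Correlations between members ran over a narrower range than those between eligible transcripts, which is given as a description. Over the 20 birds, Pearson's r between 2 members had a median of 0.093 and lay between -0.36 and 0.51 for the middle 90% of 19900 pairs, against a median of 0.0082 and limits of -0.58 and 0.60 over the pairs of eligible transcripts. An absolute r over 0.6 was found in 2.29% of member pairs and 9.19% of eligible pairs. The first principal component of the members, each scaled to unit variance, held 16.7% of their variance, and that of the eligible transcripts held 29.7%. Lowest on the members' component were control bird 1 of Day 0 (-10.6), experimental bird 3 of Day 2 (-10.5) and experimental bird 3 of Day 0 (-9.48), and highest was experimental bird 1 of Day 2 (9.41). These are descriptions over the same 20 libraries, in which all transcripts share a bird's total count. The r of a member with that total ran from -0.71 to 0.62 with a median of -0.091, and its part in the pairs was not tested.

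The rule was also repeated in some of the groups, and its choices were read in the birds that took no part. The members themselves were chosen in all 20 birds, so no bird is left in which to read them. The new choices share only part of the members. Of the 200 chosen in Day 0 birds 123 were members, and of those chosen in Day 2 birds 83 were. Of those chosen in controls 103 were members, and of those chosen in experimental birds 110 were. The 200 chosen in the 11 birds of Day 0 had a median CV of 8.69% there and 10.6% in the 9 birds of Day 2, where all 7969 transcripts eligible by that choice had 19.1%. In Day 2 birds 190 of these 200 were below the eligible median and 161 below its 25th percentile. The 200 chosen in Day 2 birds had 7.23% there and 13.1% in Day 0 birds, against 22.3% for the eligible transcripts. The 200 chosen in controls had 12.1% in experimental birds, against 21.9%, and the 200 chosen in experimental birds had 11.2% in controls, against 20.5%. In each of the 4 cases the chosen transcripts had a higher median CV in the birds not used than in those that chose them. Picking the lowest CVs in some birds favours such a rise in other birds in advance, so nothing is read from that rise.

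Since the chosen transcripts also had more reads than most, their gap to the eligible transcripts in the birds not used was read within levels too. From 100 CPM upward, the 92 chosen in Day 0 birds had a median CV of 9.76% in Day 2 birds, against 15.6% for all 1857 eligible transcripts of that level. Under 100 CPM the 108 chosen had 11.9%, against 20.4% for 6112. A single cut at 100 CPM leaves differences of level inside each class. Over all 20 birds, the median CV of eligible transcripts was 27.96% from 10 to 20 CPM and 20.20% from 50 to 100 CPM. The part of read level in the gap was therefore not tested. Of the 200 chosen in Day 0 birds, 42 were among the 200 lowest of the same eligible transcripts in Day 2 birds, and 46 of the 200 chosen in controls were so in experimental birds. In all 4 choices 29 transcripts appeared, all of them among the 200 members. The 4 choices and the members draw on the same birds, so nothing is read from that.

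**Figure D4:**
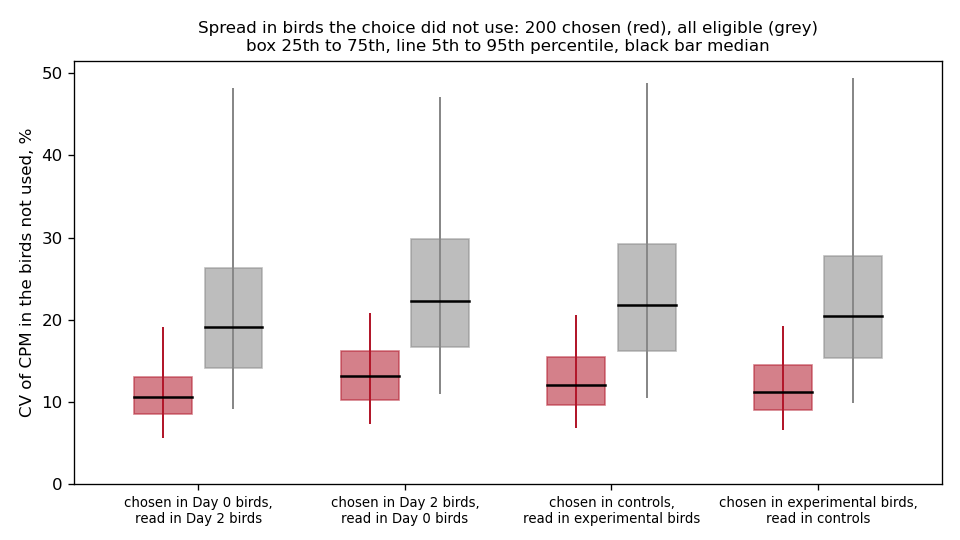
CV of CPM (percent) in birds that did not take part in the choice, for the 200 chosen transcripts (red) and all eligible transcripts (grey) in 4 choices, as medians (black bars), 25th to 75th percentiles (boxes) and 5th to 95th percentiles (lines). Chosen transcripts have medians from 10.6% to 13.1%, and eligible transcripts from 19.1% to 22.3%.

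Group differences of the members were small, as a low spread over all 20 birds requires. The ratio of the highest to the lowest of the 4 group means had a median of 1.08 and a maximum of 1.204, against a median of 1.23 for the eligible transcripts. Of a member's variance, a median of 13.0% lay between the 4 groups, from 0.0668% to 58.0%, and 15.5% over the eligible transcripts. Means of so few birds differ somewhat even where groups do not, and these shares are not corrected for that. They are therefore not read as effects of treatment or day. At the low end, tree_swallow004476t1_sg0.0 had 102, 100.5, 107 and 99.98 CPM in experimental birds of Day 2, against 113, 89.2, 111, 92.8 and 107 CPM in controls of Day 2. On Day 0 it had 87.5, 104, 87.5, 108, 126 and 100.1 CPM in experimental birds, against 106, 90.8, 112, 96.4 and 103 CPM in controls. Its 4 group means lay between 101.8 and 102.5 CPM while single birds ran from 87.5 to 126 CPM, so its spread was between birds of the same group.

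The first comparison asks whether the members differed with competition on Day 2. Fold changes come from a fit of all 13742 transcripts that pass a filter on low counts, with TMM scaling between libraries, while the CPM printed use library totals. None of the 200 passed at an edgeR adjusted p under 0.05, where 1 transcript of all those tested did (0.00728%). At an unadjusted p under 0.05 there were 2 members, both lower in experimental birds, where 6.08% of all tested had such a p and 2.53% had it and were lower. Groups did not overlap for 5 members, each lower in experimental birds. Of all tested, 1.94% did not overlap and 1.11% were lower without overlap. Members were chosen by their spread in these same birds, so nothing is read from such counts, here or in the other contrasts. The members' median log2 fold change was -0.059, and that of all tested was 0.013. Below 0 were 158 members and above 0 were 42, or 145 and 55 when scaled by library totals alone. The share of all tested on each side of 0 was not taken. The members are also read in the same few birds and are not replicates of a group. Nothing is read from these sign counts, here or in the other contrasts.

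The member of smallest p there, tree_swallow005023t1_sg0.0, had 94.5, 73.9, 75.7 and 88.3 CPM in experimental birds of Day 2, against 92.6, 98.2, 101, 100.4 and 106 CPM in controls of Day 2. Experimental birds 2 and 3 were the lowest, bird 4 lay just below the controls and bird 1 among them. Its log2 fold change was -0.27 (SE 0.11, edgeR adjusted p = 0.745). The next, tree_swallow006700t1_sg0.0, had a mean of 43.3 CPM ± 3.83 (SD over 4 birds) in experimental birds and 51.3 CPM ± 5.10 (SD over 5 birds) in controls (log2 fold change -0.26, SE 0.11, edgeR adjusted p = 0.790). In the other direction, tree_swallow001973t1_sg0.0 had a mean of 106 CPM ± 5.42 (SD over 4 birds) in experimental birds and 95.5 CPM ± 3.30 (SD over 5 birds) in controls (log2 fold change 0.14, SE 0.0996, edgeR adjusted p = 0.887). The transcript tree_swallow002282t1_sg0.0 had a mean of 93.6 CPM ± 5.37 (SD over 4 birds) and 83.7 CPM ± 6.10 (SD over 5 birds) in the same order of groups (log2 fold change 0.15, edgeR adjusted p = 0.902).

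On Day 0, at the peak of competition, 0 members passed with edgeR, as did 0% of all tested, and 6 had an unadjusted p under 0.05, each higher in experimental birds, where 7.62% of all tested had such a p and 4.13% had it and were higher. Scaled by library totals alone, 2 members had such a p, both higher. The share of all tested was not taken for that scaling, here or in the contrasts below. Groups did not overlap for 1 member, which was higher, where 0.742% of all tested did not overlap and 0.175% were higher without overlap. That member, tree_swallow013880t1_sg0.0, had 319, 293, 273, 272, 289 and 271 CPM in experimental birds, against 251, 247, 262, 244 and 254 CPM in controls. All 6 experimental birds lay above the 5 controls, by at least 271 against at most 262 CPM. Its log2 fold change was 0.23 (SE 0.090, edgeR adjusted p = 0.627). The other transcript of small p, tree_swallow002009t1_sg0.0, had 91.1, 96.9, 107, 90.4, 91.4 and 86.9 CPM in experimental birds, against 78.1, 86.7, 82.5, 72.6 and 87.9 CPM in controls. Here the groups overlapped at 86.9 to 87.9 CPM, with a log2 change of 0.25 (SE 0.097, edgeR adjusted p = 0.627).

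Lower in the experimental birds of Day 0, but far from passing, was tree_swallow004066t1_sg0.0, at 187 CPM ± 18.9 (SD over 6 birds) against 212 CPM ± 18.3 (SD over 5 birds) in controls (log2 fold change -0.13, SE 0.094, edgeR adjusted p = 0.742). The transcript tree_swallow000446t1_sg0.0 had a mean of 128 CPM ± 11.1 (SD over 6 birds) in experimental birds and 142 CPM ± 9.54 (SD over 5 birds) in controls (log2 fold change -0.11, edgeR adjusted p = 0.782). On Day 0, total counts averaged 8560733 ± 2531933 (SD over 6 birds) in experimental birds. In controls of that day they averaged 11288674 ± 2264711 (SD over 5 birds). The part of depth in this contrast was not tested. The members' median log2 fold change on Day 0 was 0.063, against 0.0038 for all tested. Above 0 were 157 members and below 0 were 43, or 125 and 75 when scaled by library totals alone. Averaged over both days the median was 0.00021, 0 members passed with edgeR, as did 0% of all tested, and 0 had an unadjusted p under 0.05, against 3% of all tested.

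**Figure D5:**
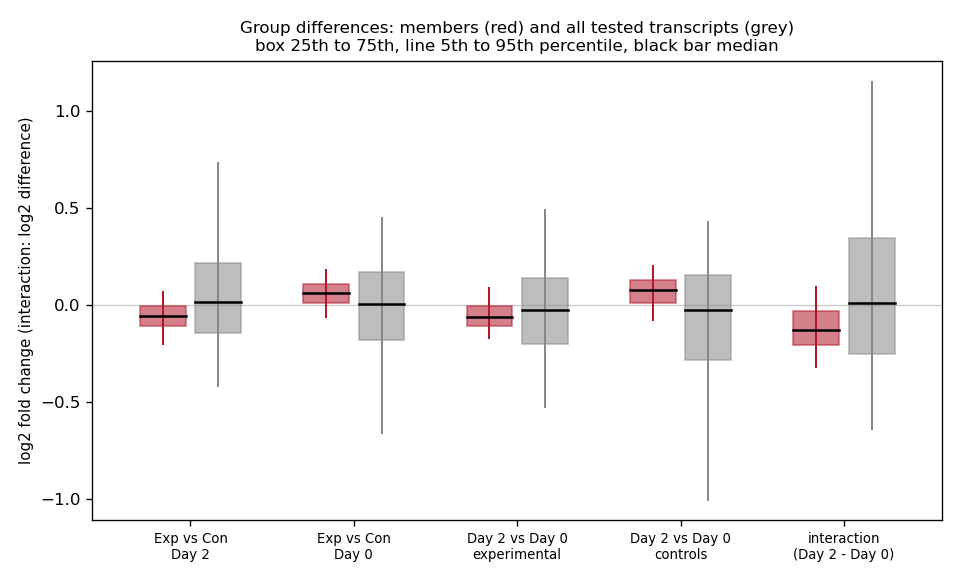
Log2 fold changes (interaction: difference of log2 fold changes) of the 200 members (red) and all 13742 transcripts tested (grey) in 5 contrasts, as medians (black bars), 25th to 75th percentiles (boxes) and 5th to 95th percentiles (lines). Member boxes are narrow, with medians of -0.059, 0.063, -0.064, 0.074 and -0.13 in the order drawn.

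The treatment effect of Day 2 minus that of Day 0 had a median of -0.13 on the log2 scale over the members, against 0.011 over all tested. Below 0 were 168 members and above 0 were 32, or 138 and 62 when scaled by library totals alone. None passed the edgeR test of this difference, as was so for all tested (0%), and 14 had an unadjusted p under 0.05, each negative, where 11.4% of all tested had such a p and 5.78% had it and were negative. Scaled by library totals alone, 4 members had such a p. The smallest edgeR adjusted p among the members was 0.307. All contrasts here draw on the same 4 groups, so the Day 2 and Day 0 medians of opposite sign are not separate from this one.

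Control birds alone give the members' differences between the days without nest box removal, in different birds on each day. Between Day 2 and Day 0 controls 0 members passed with edgeR, as did 0% of all tested, and 11 had an unadjusted p under 0.05, of which 10 were higher on Day 2 and 1 was lower. Of all tested 13.7% had such a p, 5.49% with a higher and 8.19% with a lower value on Day 2. With scaling by library totals alone, 5 members were higher and 1 was lower at such a p. Groups did not overlap for 4 members, each higher on Day 2, where 2.58% of all tested did not overlap and 1.33% were higher without overlap. The median log2 fold change was 0.074, against -0.027 for all tested. Above 0 were 155 members and below 0 were 45, or 128 and 72 when scaled by library totals alone.

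The strongest of these was again tree_swallow013880t1_sg0.0, which had 317, 292, 295, 304 and 306 CPM in Day 2 controls, against 251, 247, 262, 244 and 254 CPM in Day 0 controls. The controls of the 2 days did not overlap, at a log2 change of 0.30 (SE 0.093, edgeR adjusted p = 0.204). This value and its Day 0 treatment effect share the Day 0 controls, which were the lowest group, while experimental birds of Day 2 ran from 247 to 319 CPM. The groups held 58.0% of its variance, the highest share of any member. The transcript tree_swallow003836t1_sg0.0 had 119, 121, 109, 138 and 118 CPM in Day 2 controls, against 94.6, 90.6, 112, 106 and 102 CPM in Day 0 controls. These overlapped through 1 bird of each day, at a log2 change of 0.29 (SE 0.10, edgeR adjusted p = 0.241). DESeq2 called both (adjusted p = 0.0102 and 0.0441) and no other member in this contrast, where it called 1.34% of all tested.

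Lower on Day 2 was tree_swallow001973t1_sg0.0, at 95.5 CPM ± 3.30 (SD over 5 birds) in Day 2 controls and 113 CPM ± 16.1 (SD over 5 birds) in Day 0 controls (log2 fold change -0.20, SE 0.094, edgeR adjusted p = 0.348). Control bird 5 of Day 0, at 139.7 CPM, lay above the other 4, which had 97.9 to 113 CPM. The transcript tree_swallow002282t1_sg0.0 had a mean of 83.7 CPM ± 6.10 (SD over 5 birds) and 94.8 CPM ± 10.2 (SD over 5 birds) in Day 2 and Day 0 controls (log2 fold change -0.15, edgeR adjusted p = 0.565).

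Between the days in experimental birds 0 members passed with edgeR, as did 0% of all tested, and 1 had an unadjusted p under 0.05 and was lower on Day 2, where 5.1% of all tested had such a p and 2.77% had it and were lower. Groups did not overlap for 2 members, 1 higher and 1 lower on Day 2. Of all tested 1.08% did not overlap, 0.495% higher and 0.582% lower. The lowest p was that of tree_swallow009077t1_sg0.0, which had 78.3, 69.3, 71.4 and 79.5 CPM in experimental birds of Day 2, against 96.9, 87.5, 89.0, 77.9, 83.2 and 89.0 CPM in those of Day 0. A single Day 0 bird fell among the Day 2 values, at a log2 change of -0.25 (SE 0.10, edgeR adjusted p = 0.899). The transcript tree_swallow005389t1_sg0.0 had a mean of 35.3 CPM ± 0.636 (SD over 4 birds) on Day 2 and 40.6 CPM ± 5.21 (SD over 6 birds) on Day 0, with an edgeR adjusted p of 0.899. Higher on Day 2, tree_swallow010731t1_sg0.0 had a mean of 71.6 CPM ± 1.92 (SD over 4 birds) against 64.7 CPM ± 4.11 (SD over 6 birds), and its birds did not overlap between the days (log2 fold change 0.13, SE 0.098, edgeR adjusted p = 0.910). The transcript tree_swallow003745t1_sg0.0 had a mean of 266 CPM ± 16.2 (SD over 4 birds) against 239 CPM ± 16.7 (SD over 6 birds), with an edgeR adjusted p of 0.914. The members' median log2 fold change was -0.064, against -0.027 for all tested. Below 0 were 156 members and above 0 were 44, or 142 and 58 when scaled by library totals alone.

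The 95% intervals of the fit are given as a description. On the log2 scale, 95% intervals stayed inside ±0.5 for all but 1 of the members for treatment on Day 2, for all on Day 0, for all between the days in experimental birds and for all but 1 in controls. Over all tested the shares were 24.5%, 30.4%, 26.5% and 25.1%. Inside ±0.25 were the intervals of 19, 46, 23 and 34 members in the same order. The median SE was 0.11, 0.10, 0.11 and 0.11 for members, and 0.24, 0.21, 0.23 and 0.22 for all tested. The farthest bound of any member in these 4 contrasts was 0.505, for treatment on Day 2. The members were chosen by low spread in these same birds, which favours both small fold changes and short intervals in advance. Nothing is therefore read from how many intervals stay inside these limits.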

How the data were processed

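RNA from 20 ovaries, 1 per bird, was sequenced. Per the labels' protocols, total RNA came from Trizol extraction of ovaries frozen in the field, and a stranded mRNA kit was used for the libraries. The submitters' processing notes name CASAVA, fastp 0.20.1, Bowtie2 2.4.2 and SAMtools. For the reference, the counting program and its strand setting, the sources used here give nothing. The table the authors deposited holds raw counts, as whole numbers, with 1 column for each bird.

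The members and lists were chosen with earlier results of these data known. Columns were matched to birds by title. One line that names no transcript, with 0 counts, was left out. Of 14782 transcripts, 2502 share an ID stem with another and 12280 do not. Of the unshared ones, 3942 averaged under 10 CPM and 445 over 300. CPM values use library totals. None of 30 reference and marker symbols in 7 lists matched an ID (0 matches).

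Transcripts passing filterByExpr (minimum count 10, minimum total 15), 13742 in all, were fitted with TMM factors (0.939 to 1.07) with edgeR 4.0.16 under R 4.3.3 (quasi-likelihood test, robust), 4 group means and no covariate, and p-values were adjusted by Benjamini-Hochberg over all of them. Standard errors are the fold change divided by the root of the F statistic. DESeq2 1.42.0 and limma 3.58.1 (voom with sample weights) were alternatives, as were other scalings, filters, measures of spread and each bird left out. The test was checked on simulated counts with changes larger than the members' shifts, so that check does not bear on shifts of their size. For the 41 pairs of libraries of 1 group, chi-square divided by its degrees of freedom was 12.6 to 89.1, so none was treated as a duplicate. Depth was 5818117 to 15718893 counts per bird, and counting intervals would cover counting error only. Named members are the 5 of lowest CV, 2 on each side of the cut, the highest and lowest in mean CPM and in share of variance between groups, and up to 2 higher and 2 lower of smallest p per two-group contrast. Other members are said to be chosen after their values were seen.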

Additional observations from a re-analysis of the deposited data

Results flagged for a closer look

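In 4 of 116 group tests a bird lay far from the others of its group, where chance gives about 5.8. Most of these tests were on transcripts chosen for low spread in the same birds, so nothing is read from that comparison. The members' median absolute deviation was 9.58% in experimental bird 3 of Day 0 and 5.23% to 6.31% in the other 5 of that group. The transcript tree_swallow006123t1_sg0.0 had 140.7 CPM in the same bird and 159.9 to 167 CPM in the others. The transcript tree_swallow007441t1_sg0.0 had 89.3 CPM in experimental bird 3 of Day 2 and 112 to 116 CPM in the other 3. The transcript tree_swallow000446t1_sg0.0 stood at 159 CPM in control bird 4 of Day 2, where the other 4 had 124 to 130.2 CPM.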

How the results depend on the processing

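No paired analysis was possible because bird numbers follow sample order and the labels pair no birds across groups. The rule kept 158 to 190 of the 200 members in 9 of 10 changes of scaling, window, depth, stems or measure, and 171 to 191 with 1 bird left out. With the median absolute deviation over the median as the measure of spread it kept 81, and the cause was not tested. With stems of several transcripts included, 30 of the 200 were such transcripts. In all 30 of these changes, left-out birds included, 57 members stayed. The count of members called was 0 in each contrast and alternative, with 1 exception, days in controls with DESeq2, where it was 2. The 16 log2 fold changes of named members kept their sign in all 432 values from 27 refits. Counts at unadjusted p depended on scaling and tool. The share of all tested was taken for the main edgeR fit only, so nothing is read from the counts of other settings. For the interaction the member counts ran from 4 with library totals to 30 with limma voom. For treatment on Day 0 they ran from 2 with library totals to 15 with DESeq2. For treatment on Day 2 they were 2 with library totals and 17 with limma voom. The lowest there was 0, over the alternatives other than 1 bird left out. For days in controls the counts ran from 6 with library totals to 20 with DESeq2. For days in experimental birds they ran from 0 with the compared groups alone to 8 with limma voom. Left-out birds moved these counts too, which for treatment on Day 2 reached 0 without experimental bird 2 or 3 of that day and 12 without its experimental bird 1. For days in controls they ran from 3, leaving out control bird 2 of Day 0, up to 16, leaving out experimental bird 3 of Day 0. For treatment on Day 0 they ran from 3 to 10, for the interaction from 5 to 28 and for days in experimental birds from 0 to 6. The members' medians kept their sign in every left-out case outside the averaged contrast, where they ran from -0.015 to 0.013. Tightness ran from 5.95% to 6.26% with 1 bird left out.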
